A study of Mus musculus with 12 samples.

Results

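The genes described here are 33 mouse genes of fat cells and of lipid synthesis, followed through RNA-seq libraries of single muscle fibers, pooled muscle fibers and whole muscle. They were taken by symbol from the deposited count table, and all 33 were found among its 55573 gene rows. The list was chosen by knowledge of these genes in fat and with measured values of the same libraries known, those of fibers against whole muscle. For that reason every value against whole muscle is given as a description, and no p of that contrast is given for them. The label was checked against the data: in whole muscle all 33 genes were read in each library, while in the fiber libraries they did not behave as 1 group, and several stood as high as in whole muscle.

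The study sequenced the extensor digitorum longus (EDL), a fast hindlimb muscle of the mouse, from C57BL/6 animals with no allele or treatment named. A myofiber is a single multinucleate muscle cell, and 3 libraries each were made from single fibers, from pools of 5 fibers, from pools of 20 fibers and from whole muscle. All 12 libraries used the SMART-Seq HT kit, which amplifies full-length cDNA from picogram inputs. Single fibers went straight into the kit's lysis buffer, per the labels' protocols, and RNA of whole muscle came from a Trizol preparation. No separate protocol is given for the pools. The way RNA was obtained and the kind of material therefore cannot be told apart, and the labels do not say which libraries share an animal or what its age was. Tests between fiber groups measure the spread between these libraries, which may be technical.

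White fat cells store triglyceride in a single large droplet coated by perilipin and CIDE proteins, release fatty acids from it under adrenergic control, and secrete hormones such as adiponectin, leptin and resistin. Brown fat cells burn lipid for heat through the uncoupling protein UCP1. The nuclear receptor PPARγ and the factor C/EBPα drive the fat cell program, and the enzymes of fatty acid and triglyceride synthesis serve it but are also made in many other cells. Muscle fibers hold small lipid droplets of their own, and fat cells lie between fibers and along the vessels and connective tissue of a muscle.

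Promoter windows from the RefSeq tables of build GRCm38.p6 reached 23 of the 33 genes with 31 windows, each from 250 bases before to 50 bases after an annotated start. The 4 below are shown because their genes contrast in single fibers. Adipoq (chr16:23146286-23146585, plus strand) and Ucp1 (chr8:83290098-83290397, plus strand) were almost unread in single fibers, and Plin4 (chr17:56109733-56110032, minus strand) and Gpam (chr19:55127189-55127488, minus strand) were high in them. Each runs 5′ to 3′ on the strand of its gene, and capitals mark CCAAT or its reverse complement ATTGG, the CCAAT box, and AGGTCA, a hexamer bound by nuclear receptors.
Adipoq: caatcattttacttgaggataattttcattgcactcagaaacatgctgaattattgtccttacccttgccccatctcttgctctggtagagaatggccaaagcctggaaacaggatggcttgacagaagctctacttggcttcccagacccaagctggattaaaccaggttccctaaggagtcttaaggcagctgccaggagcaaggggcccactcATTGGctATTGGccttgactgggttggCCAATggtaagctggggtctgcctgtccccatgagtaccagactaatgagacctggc
Ucp1: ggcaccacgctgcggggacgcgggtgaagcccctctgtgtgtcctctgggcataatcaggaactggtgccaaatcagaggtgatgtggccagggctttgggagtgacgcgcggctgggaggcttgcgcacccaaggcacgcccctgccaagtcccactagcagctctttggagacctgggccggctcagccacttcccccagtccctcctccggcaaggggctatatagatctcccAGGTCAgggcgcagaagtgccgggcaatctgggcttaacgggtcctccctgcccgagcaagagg
Plin4: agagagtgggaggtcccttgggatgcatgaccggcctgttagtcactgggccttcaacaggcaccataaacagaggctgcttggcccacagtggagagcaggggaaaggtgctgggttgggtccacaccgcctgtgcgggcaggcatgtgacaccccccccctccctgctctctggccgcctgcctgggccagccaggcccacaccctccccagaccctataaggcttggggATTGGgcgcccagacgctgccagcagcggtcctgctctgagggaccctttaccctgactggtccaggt
Gpam: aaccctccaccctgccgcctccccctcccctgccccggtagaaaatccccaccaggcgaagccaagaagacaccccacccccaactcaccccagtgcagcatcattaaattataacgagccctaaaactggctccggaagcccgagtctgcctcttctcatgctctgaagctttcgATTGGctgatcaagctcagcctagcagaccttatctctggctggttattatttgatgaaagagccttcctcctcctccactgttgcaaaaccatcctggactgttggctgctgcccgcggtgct
The Adipoq window held 3 CCAAT boxes, and the windows shown for Plin4 and Gpam held 1 each. Another Gpam window (chr19:55099428-55099727), not shown, held no CCAAT box and 1 AGGTCA. The Ucp1 window held 1 AGGTCA. Over all 31 windows of the 33 genes, CCAAT on either strand was present in 10 (32.3%), against 37.4% of the 32851 promoter windows of the genome. AGGTCA was present in 6 of the 31 (19.4%, against 16.3%), TATAAA in 3 (9.68%, against 13.6%) and CACGTG, the E-box, in 1 (3.23%, against 7.15%). AGGTCA repeated in the same direction with 1 base of any kind between, the element that PPARγ is known to bind, contains the AGGTCA already counted and was in none of the 31, against 0.0396% of all windows. These counts describe letters in short windows only.

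The libraries held between 4702823 and 27787120 reads assigned to genes, and levels are read counts brought to a common library total (CPM) with edgeR's TMM scaling, whose factors ran from 0.524 to 2.82. The 3 pools of 20 and pools of 5 numbers 1 and 2 carried reads in more than 50% of 1506 sensory receptor genes (for smell, pheromones and taste), most of which muscle is not known to use. That share was 26.7%, 4.85% and 9.89% in the single fibers, 4.58% in pool of 5 number 3, and 2.32% to 4.85% in whole muscle. A read density per kilobase of exon above the 99th percentile of the receptor genes in the same library is used below as a mark of signal over this background. Markers of skeletal fibers were high throughout, with summed levels of 180400 to 308900 CPM in single fibers, 62730 to 317100 CPM in pools of 5, 17980 to 114700 CPM in pools of 20 and 79960 to 105200 CPM in whole muscle.

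In whole muscle all 33 genes stood above the receptor percentile in each library. In the 9 fiber libraries together, 7 genes did so in every library: Acly, Car3, Dgat1, Elovl3, Gpam, Me1 and Plin4. Another 9 did so in 5 to 8 fiber libraries and 11 in 1 to 4, and 6 did so in none: Adipoq, Adrb3, Cidec, Lep, Pck1 and Plin1. The percentile itself ran from 0.684 to 17.9 reads per kilobase over the fiber libraries and from 0.488 to 1.37 over whole muscle. Acvr1c and Acaca passed it in every whole muscle library and in no pool of 20. Yet they averaged 0.413 and 0.764 CPM per kilobase in pools of 20, against 0.371 and 0.394 in whole muscle. Where the percentile was low, 1 or 2 reads could pass it. In single fibers Cfd passed in 1 library on its only read and Retn in 1 on 2 reads, so such cases do not show expression. Over the 3 single fibers, 4 genes had no read at all (Adrb3, Lep, Pck1 and Ucp1), 6 had 1 to 3 reads, 8 had 4 to 30 reads and 15 had 31 or more. Per length of exon, the highest in single fibers were Car3 at 183 CPM per kilobase, Me1 at 50.3 and Gpam at 25.7, while in whole muscle they were Cfd at 863, Car3 at 782 and Adipoq at 59.9.

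**Figure D1:**
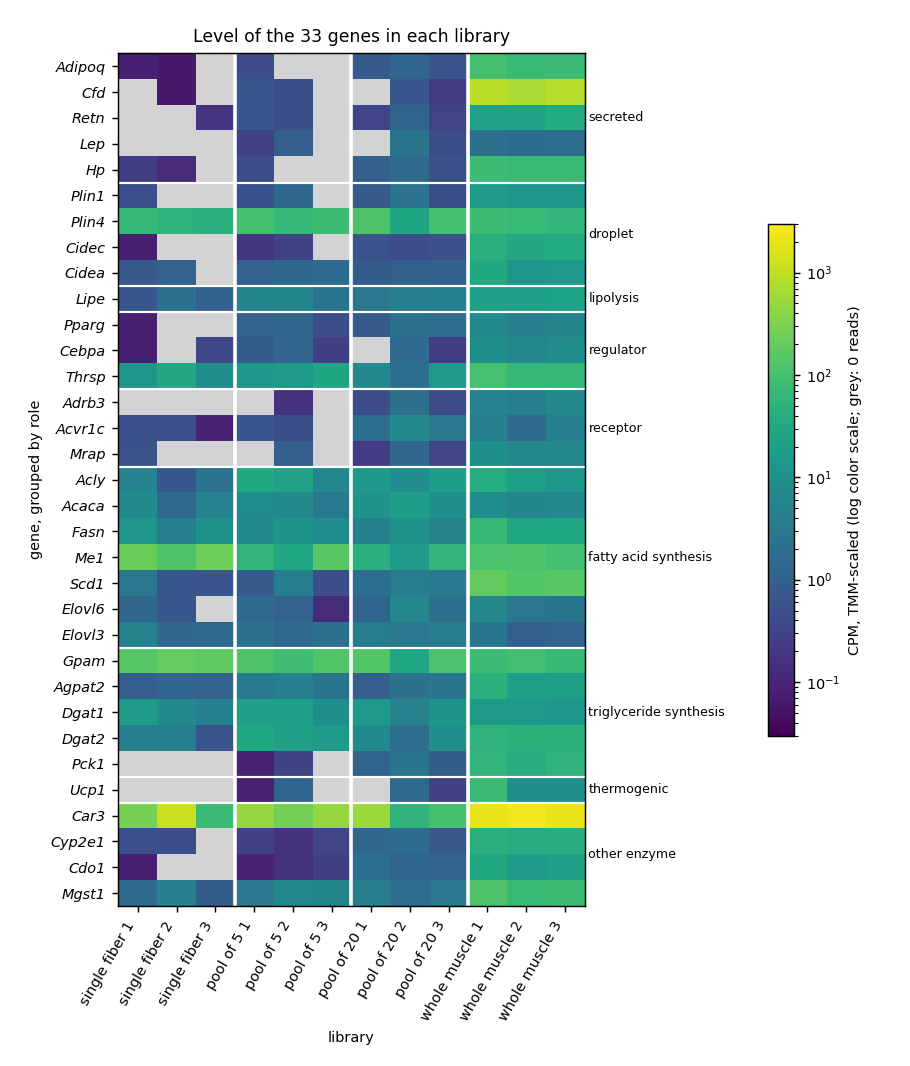
Level of the 33 genes (rows, by role) in the 12 libraries (columns, single fibers on the left and whole muscle on the right) in TMM-scaled CPM on a log color scale. Cfd and Adipoq do not pass 1.28 CPM in any of the 9 fiber libraries and reach 859 and 98.9 CPM in whole muscle, while Plin4, Gpam and Me1 are at 17.4 CPM or more in every library.

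Of the 33 genes, 24 were lower in the 9 fiber libraries together than in whole muscle past an adjusted p of 0.05 in edgeR's quasi-likelihood test, and none was higher. Over all 22110 genes tested, 7.78% were lower and 7.46% higher by that rule. Since results of this contrast were known when the genes were listed, the count is printed beside its background and nothing is read from it. The median log2 fold change of the 33 was -3.93, beside 0.40 over all genes. In 23 of the 33, all 9 fiber libraries lay below all 3 whole muscle libraries, which 7.72% of all genes tested did. In libraries of mixed cells, fewer cells of a type and less RNA per cell cannot be told apart. Against the same whole muscle libraries, single fibers had 25 of the 33 lower and 1, Gpam, higher (19.8% and 13.9% of all genes tested), with a median of -5.38. Pools of 5 had 23 lower and none higher (4.22% and 4.63%), with a median of -3.22, and pools of 20 had 22 lower and 1, Acaca, higher (13.5% and 30.3%), with a median of -3.06. The count for pools of 5 depended on which libraries entered: without whole muscle 1, 2 or 3 it was 2, 9 or 8 genes in either direction, and without pool of 5 number 1 it was 9. The calls over all genes shrank with it, to 0.0429%, 0.279% and 0.279% without those whole muscle libraries and to 1.31% without that pool.

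Of the 5 secreted proteins, 4 did not pass 1.58 CPM in any fiber library and stood at 23.0 CPM or more in whole muscle, and leptin was low in both. Cfd, the serine protease adipsin of the alternative complement pathway (ENSMUSG00000061780, chromosome 10, 79890853 to 79892655, plus strand), had 0, 0.0645 and 0 CPM in single fibers, 0.731, 0.479 and 0 CPM in pools of 5, 0, 0.679 and 0.235 CPM in pools of 20, and 859, 693 and 836 CPM in whole muscle. That is 1 read over the 3 single fibers and 55580 over the 3 whole muscle libraries, a pooled ratio 30400-fold lower in single fibers, with a 95% counting interval of 5460 to 1200000. No fiber library came within reach of any whole muscle library, and the fitted log2 fold change for all 9 was -12.27 (SE 0.79). Such intervals cover counting error only, since reads copied by PCR are not independent molecules.

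Adipoq, the hormone adiponectin (ENSMUSG00000022878, chromosome 16, 23146536 to 23158028, plus strand), had 0.0830, 0.0645 and 0 CPM in single fibers, 0.457, 0 and 0 CPM in pools of 5, 0.793, 1.28 and 0.611 CPM in pools of 20, and 98.9, 71.6 and 77.4 CPM in whole muscle. The pools of 20 held 37 of its 44 fiber reads, with none of those libraries above the receptor percentile. Its 2 reads in single fibers against 5609 in whole muscle gave a ratio 1540-fold lower (425 to 12700). Hp, the hemoglobin-binding plasma protein haptoglobin, had 0.249, 0.129 and 0 CPM in single fibers, 0.457, 0 and 0 CPM in pools of 5, 1.02, 1.58 and 0.517 CPM in pools of 20, and 80.3, 71.0 and 74.1 CPM in whole muscle. Retn, the hormone resistin, did not pass 1.21 CPM in any fiber library and stood at 23.0 to 35.1 CPM in whole muscle. Lep, the satiety hormone leptin, was low everywhere, at 0 CPM in each single fiber, 0 to 0.957 CPM in pools of 5, 0 to 2.49 CPM in pools of 20 and 1.78 to 2.08 CPM in whole muscle. Its highest library was pool of 20 number 2, so the groups overlapped, and against its 132 reads in whole muscle the single fibers were at least 24.1-fold lower, with 3 reads over the group as the floor.

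Among the droplet proteins, Plin4 stood apart from the others. Plin4, a perilipin that coats small droplets and is made in muscle as well as in fat (ENSMUSG00000002831, chromosome 17, 56100591 to 56109803, minus strand), had 63.8, 51.4 and 46.4 CPM in single fibers, 102, 63.2 and 81.3 CPM in pools of 5, 121, 26.8 and 99.7 CPM in pools of 20, and 79.5, 73.5 and 62.2 CPM in whole muscle. The groups overlapped, and the fitted log2 fold change over all fibers was -0.01 (SE 0.45), beside the 0.40 of the median gene, and was 0.08 and 0.23 with the other scaling methods. Plin1, the perilipin of the large droplet of fat cells that gates lipolysis, had 0 to 0.498 CPM in single fibers, 0 to 1.44 CPM in pools of 5, 0.470 to 2.41 CPM in pools of 20 and 12.8 to 17.3 CPM in whole muscle.

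Cidec and Cidea, which bring droplets together so that they fuse, were low in all fibers. Cidec had 0.0830, 0 and 0 CPM in single fibers, 0.183, 0.319 and 0 CPM in pools of 5, 0.566, 0.452 and 0.517 CPM in pools of 20, and 45.7, 30.7 and 35.7 CPM in whole muscle. Cidea, which is known from brown fat, had 0.747, 1.10 and 0 CPM in single fibers, 1.10, 1.44 and 1.70 CPM in pools of 5, 0.906, 1.06 and 1.08 CPM in pools of 20, and 33.1, 13.2 and 14.6 CPM in whole muscle. The fitted log2 fold changes were -8.10 (SE 0.50) for Cidec and -4.38 (SE 0.51) for Cidea, and no fiber library overlapped whole muscle for either gene. Lipe, the hormone-sensitive lipase that splits diglycerides, was read in every fiber library. It had 0.664, 2.26 and 1.06 CPM in single fibers, 5.39, 5.59 and 2.49 CPM in pools of 5, 2.83, 4.07 and 4.7 CPM in pools of 20, and 22.3, 20.3 and 23.9 CPM in whole muscle, a log2 fold change of -2.95 (SE 0.38). On the opposite strand the gene 4732471J01Rik overlaps 15.6% of the exon bases of Lipe, and the strand setting of the counting is not given in the sources used here.

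The 3 regulators differed in how far they were read in fibers. Pparg, the nuclear receptor that drives the fat cell program, had 0.0830, 0 and 0 CPM in single fibers, 1.10, 1.28 and 0.458 CPM in pools of 5, 0.793, 2.19 and 2.02 CPM in pools of 20, and 7.31, 4.54 and 5.47 CPM in whole muscle. Its single read in single fibers stood against 27 in pools of 5, 79 in pools of 20 and 386 in whole muscle. Cebpa, the partner factor C/EBPα, had 0.0830, 0 and 0.354 CPM in single fibers, 0.913, 1.28 and 0.262 CPM in pools of 5, 0, 1.66 and 0.235 CPM in pools of 20, and 9.39, 6.25 and 8.90 CPM in whole muscle. Thrsp, a nuclear protein known to promote lipogenesis in liver and fat, was well read in fibers, at 13, 31.4 and 8.59 CPM in single fibers, 13.6, 16.6 and 27 CPM in pools of 5, 6.79, 2.04 and 14.3 CPM in pools of 20, and 106, 64.1 and 63.8 CPM in whole muscle. All fiber libraries were below whole muscle for Thrsp, by a log2 fold change of -2.50 (SE 0.46), against -3.93 (SE 0.64) for Pparg and -4.28 (SE 0.77) for Cebpa.

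Of the 3 receptor genes, Adrb3, the β3-adrenergic receptor that starts lipolysis, had no read in single fibers, 0, 0.160 and 0 CPM in pools of 5, 0.453, 2.11 and 0.423 CPM in pools of 20, and 5.01, 4.40 and 6.78 CPM in whole muscle. Against 391 reads in whole muscle, the single fibers were at least 71.3-fold lower. The gene Gm45470 covers 24.9% of the exon bases of Adrb3 on the opposite strand, so reads of the pair cannot be told apart here. Acvr1c, the activin receptor ALK7 of fat cells, had 0.498, 0.516 and 0.0886 CPM in single fibers, 0.731, 0.479 and 0 CPM in pools of 5, 1.93, 6.63 and 2.96 CPM in pools of 20, and 4.47, 1.63 and 4.23 CPM in whole muscle. Pools of 20 and whole muscle overlapped, and none of the pools of 20 was above the receptor percentile for Acvr1c. Mrap, the accessory protein that carries the ACTH receptor to the surface, had 0.581, 0 and 0 CPM in single fibers, 0, 0.957 and 0 CPM in pools of 5, 0.226, 1.36 and 0.329 CPM in pools of 20, and 9.78, 6.71 and 6.82 CPM in whole muscle.

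The 7 genes of fatty acid synthesis had log2 fold changes from -6.35 to 0.77 over all fibers. Me1, the cytosolic malic enzyme that supplies NADPH (ENSMUSG00000032418, chromosome 9, 86581371 to 86695953, minus strand), had 221, 127 and 233 CPM in single fibers, 55.6, 28.4 and 151 CPM in pools of 5, 44.4, 17.4 and 58.7 CPM in pools of 20, and 117, 123 and 97.2 CPM in whole muscle. Every single fiber stood above every whole muscle library, with a log2 fold change of 0.76 (SE 0.32), while the 9 fiber libraries together gave -0.41 (SE 0.50). Of the 50-base windows sampled from its transcripts, 35.6% also occur in a transcript of another gene, among them Gm7049 and Gm48795, so its level is uncertain. Acly, the ATP citrate lyase that makes cytosolic acetyl-CoA (ENSMUSG00000020917, chromosome 11, 100476353 to 100528000, minus strand), had 4.90, 0.710 and 2.39 CPM in single fibers, 32.0, 22.8 and 6.35 CPM in pools of 5, 13.8, 8.52 and 18.2 CPM in pools of 20, and 36.6, 19.5 and 13.5 CPM in whole muscle. The single fibers were below all other libraries for Acly, while both kinds of pool overlapped whole muscle.

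Acaca, the acetyl-CoA carboxylase that makes malonyl-CoA, had 7.22, 1.55 and 5.05 CPM in single fibers, 8.04, 7.34 and 3.21 CPM in pools of 5, 11.4, 18 and 9.68 CPM in pools of 20, and 8.16, 5.57 and 6.45 CPM in whole muscle. All pools of 20 lay above all whole muscle libraries, with a log2 fold change of 1.38 (SE 0.38), yet no pool of 20 was above the receptor percentile for it, and 37.9% of its 50-base windows also occur in another gene, mostly Gm5182. Fasn, the fatty acid synthase, was lower in every fiber group, at 4.58 to 12.2 CPM in single fibers, 7.21 to 11.7 CPM in pools of 5, 4.64 to 10.6 CPM in pools of 20 and 28.3 to 65.7 CPM in whole muscle. Scd1, the desaturase that makes oleate, had 2.82, 0.645 and 0.620 CPM in single fibers, 0.822, 4.31 and 0.458 CPM in pools of 5, 1.93, 4.0 and 3.57 CPM in pools of 20, and 192, 139 and 150 CPM in whole muscle. Its log2 fold change of -6.35 (SE 0.54) was the lowest of the 7 synthesis genes. Elovl3 and Elovl6 lengthen fatty acids. Elovl3 had 5.14, 1.48 and 1.51 CPM in single fibers, 2.19, 1.6 and 2.16 CPM in pools of 5, 3.85, 2.94 and 3.76 CPM in pools of 20, and 2.70, 0.923 and 1.11 CPM in whole muscle, and all 9 fiber libraries were above the receptor percentile for it. The fitted value of 0.77 (SE 0.63) for Elovl3 was the highest of the 33. Elovl6 had 0 to 1.41 CPM in single fibers, 0.131 to 1.55 CPM in pools of 5, 1.25 to 6.26 CPM in pools of 20 and 2.62 to 6.78 CPM in whole muscle.

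In triglyceride synthesis, Gpam, the mitochondrial acyltransferase of the first step (ENSMUSG00000024978, chromosome 19, 55067268 to 55127238, minus strand), had 143, 198 and 174 CPM in single fibers, 127, 89.8 and 132 CPM in pools of 5, 136, 30.3 and 117 CPM in pools of 20, and 77.0, 90.7 and 68.0 CPM in whole muscle. The single fibers lay above all whole muscle libraries, with a log2 fold change of 1.08 (SE 0.25). Over all fibers the value was 0.65 (SE 0.49), with pool of 20 number 2 alone below all 3 whole muscle libraries. Agpat2, the acyltransferase of the next step, had 0.996 to 1.29 CPM in single fibers, 2.55 to 4.47 CPM in pools of 5, 1.02 to 2.77 CPM in pools of 20 and 20.3 to 46.6 CPM in whole muscle.

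Dgat1 and Dgat2 both add the last fatty acid. Dgat1 had 4.7 to 17.2 CPM in single fibers, 9.36 to 21.7 CPM in pools of 5, 4.98 to 15.1 CPM in pools of 20 and 12.5 to 16.3 CPM in whole muscle, with every fiber library above the receptor percentile. Dgat2 had 0.620 to 4.23 CPM in single fibers, 17.1 to 28.4 CPM in pools of 5, 1.89 to 8.74 CPM in pools of 20 and 48.6 to 53.6 CPM in whole muscle. The log2 fold change over all fibers was -0.28 (SE 0.43) for Dgat1 and -2.78 (SE 0.45) for Dgat2. Pck1, the cytosolic phosphoenolpyruvate carboxykinase that in fat feeds glycerol synthesis, had no read in single fibers, 0.0913, 0.319 and 0 CPM in pools of 5, 1.25, 2.71 and 0.893 CPM in pools of 20, and 57.4, 42.3 and 52.8 CPM in whole muscle. Single fibers were at least 640-fold lower for Pck1, and no fiber library was above the receptor percentile.

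Ucp1, the uncoupling protein of brown fat (ENSMUSG00000031710, chromosome 8, 83290352 to 83298452, plus strand), had no read in single fibers, 0.0913, 1.28 and 0 CPM in pools of 5, 0, 1.58 and 0.282 CPM in pools of 20, and 77.3, 9.16 and 9.77 CPM in whole muscle. Single fibers were at least 283-fold lower, or at least 123-fold lower without whole muscle 1, which held most of its reads. The whole muscle libraries differed more for Ucp1 than for any other of the 33 genes.

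The other enzymes held the most abundant gene of the list in fibers. Car3, the carbonic anhydrase III known from fat and from slow muscle fibers (ENSMUSG00000027559, chromosome 3, 14863512 to 14872523, plus strand), had 279, 1217 and 76.9 CPM in single fibers, 483, 270 and 484 CPM in pools of 5, 520, 53.0 and 98.9 CPM in pools of 20, and 2115, 2450 and 2158 CPM in whole muscle. No fiber library reached whole muscle, and the 3 single fibers spanned the widest range of any of the 4 groups. The log2 fold change over all fibers was -2.62 (SE 0.70). Markers of slow fibers, the other known source of Car3, were called lower too, in 8 of 8 genes, against 7.78% of all genes tested. In the same order of libraries, they summed to 76.2, 21.2 and 47.7 CPM in single fibers and 149, 160 and 245 CPM in pools of 5. The sums were 39.85, 31.4 and 95.9 CPM in pools of 20 and 722, 1380 and 924 CPM in whole muscle. Among the fiber libraries the order of these sums differed from that of Car3. Their part in the Car3 values was not tested.

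Mgst1, a membrane glutathione transferase, had 1.58, 4.45 and 0.886 CPM in single fibers, 2.83, 6.38 and 5.76 CPM in pools of 5, 3.96, 1.89 and 2.96 CPM in pools of 20, and 120, 74.3 and 80.3 CPM in whole muscle. Cdo1, the cysteine dioxygenase that leads to taurine, had 0.0830, 0 and 0 CPM in single fibers, 0.0913, 0.160 and 0.262 CPM in pools of 5, 2.04, 1.21 and 1.18 CPM in pools of 20, and 32.1, 17.1 and 21.7 CPM in whole muscle. Cyp2e1, a cytochrome P450 of liver and fat, had 0 to 0.498 CPM in single fibers, 0.160 to 0.327 CPM in pools of 5, 0.752 to 1.73 CPM in pools of 20 and 39.2 to 45.7 CPM in whole muscle. For all 3 genes the fiber libraries lay below whole muscle, by log2 fold changes of -4.82 (SE 0.42) for Mgst1, -6.81 (SE 0.48) for Cdo1 and -6.42 (SE 0.45) for Cyp2e1.

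**Figure D2:**
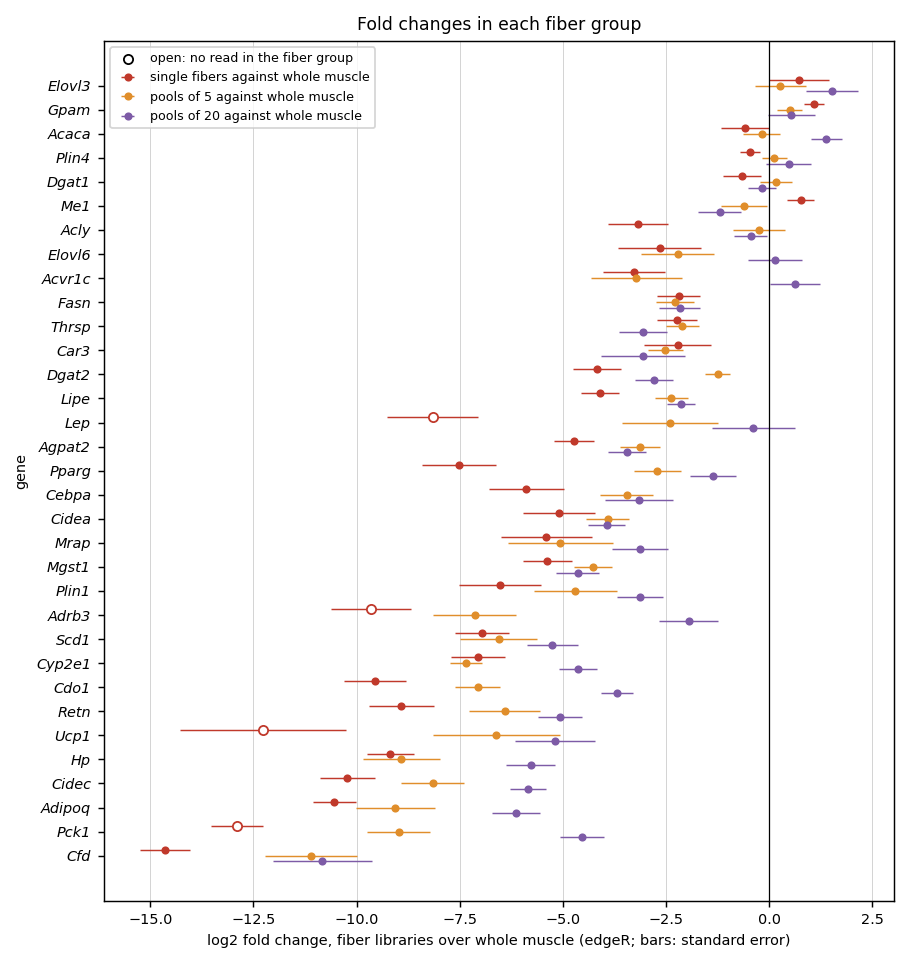
Log2 fold change of each of the 33 genes (rows) in single fibers, pools of 5 and pools of 20 against whole muscle, with bars for the standard error and open points where no single fiber held a read, so that the fitted value is no bound. The points of Gpam and Elovl3 lie above 0 in all 3 fiber groups, and those of Cfd lie between -14.65 and -10.83.

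The fiber groups were then compared with each other, contrasts that did not choose the genes. Between single fibers and pools of 5, none of the 17 members tested was called by edgeR's quasi-likelihood test with Benjamini-Hochberg adjustment over 12700 genes, of which 0.0157% were lower and 0% higher. Of the 17, 5 had an unadjusted p under 0.05, as had 8.91% of all genes tested. The largest differences were in Acly, with a log2 fold change of -3.02 (edgeR adjusted p = 0.337), and Dgat2, with -3.00 (edgeR adjusted p = 0.236), and for both the single fibers lay below all pools of 5. DESeq2 called both of them, and 3.33% of all genes, with adjusted p = 0.0142 for Acly and adjusted p = 0.00176 for Dgat2. Between pools of 5 and pools of 20 none of 22 members tested was called in edgeR or in DESeq2. Over all 17113 genes, edgeR called 0% and DESeq2 1.05%. In edgeR 5 of the 22 had an unadjusted p under 0.05, as had 8.78% of all genes.

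Between single fibers and pools of 20, edgeR's quasi-likelihood test called 8 of 24 members lower and 1 higher, against 27.5% and 8.52% of all 16978 genes tested. The other 9 members were too low to be tested. Acvr1c, Adipoq, Cdo1, Hp, Pck1 and Pparg passed the filter on low counts only through their reads in the pools of 20. Over the single fibers they held 15, 2, 1, 5, 0 and 1 reads, so they could only be called lower in single fibers. Their adjusted p values are printed as a record, and nothing is read from these calls. The member called higher in single fibers was Me1, at 221, 127 and 233 CPM in single fibers against 44.4, 17.4 and 58.7 CPM in pools of 20, a log2 fold change of 1.95 (SE 0.56, edgeR adjusted p = 0.0156), beside -0.74 for the median of all genes. It was above the receptor percentile in all 3 pools of 20, and its call was lost with no filter on low counts and without single fiber 1 or 3. Acly was lower in single fibers, at 4.90, 0.710 and 2.39 CPM against 13.8, 8.52 and 18.2 CPM in pools of 20, a log2 fold change of -2.74 (SE 0.67, edgeR adjusted p = 0.00757), and it too was above the percentile in all 3 pools. Pparg differed by -6.10 (SE 1.5, edgeR adjusted p = 0.00784) and Cdo1 by -5.78 (SE 1.43, edgeR adjusted p = 0.00792) on the log2 scale, both resting on 1 read over the single fibers. Pck1, with no read in single fibers, was called too (edgeR adjusted p = 0.00727), and its fitted fold is no bound.

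Adipoq was called with a log2 fold change of -4.49 (SE 1.32, edgeR adjusted p = 0.0174). Acvr1c was called with -4.04 (SE 1.15, edgeR adjusted p = 0.0148) and Hp with -3.56 (SE 1.28, edgeR adjusted p = 0.0422). These 3 could only be called lower, as given above, and nothing is read from their calls. Acaca was called with -2.08 (SE 0.65, edgeR adjusted p = 0.0233). None of Adipoq, Acvr1c, Hp, Acaca, Pck1 and Pparg was above the receptor percentile in any pool of 20, and Cdo1 was so in 2 of 3. The receptor genes had a median of 1.17, 7.41 and 4.52 reads per kilobase in the pools of 20, and their part in these calls was not tested. The calls of Acvr1c and Acaca were lost without pool of 20 number 2 or single fiber 3, that of Acaca also without single fiber 2 or with no filter, that of Adipoq without single fiber 2 or 3, and that of Hp with no filter, without any 1 single fiber and without pool of 20 number 1 or 2. Without single fiber 3, 5 members and 39.8% of all genes were called. With the replicate number as a block, 0 members and 0.0412% of all genes were called, although the numbers do not pair the libraries.

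**Figure D3:**
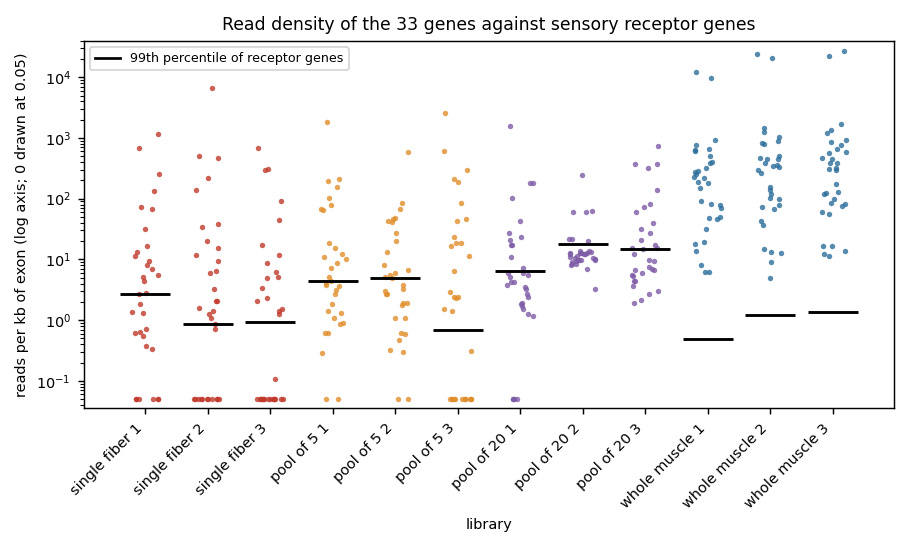
Reads per kilobase of exon (log axis) of the 33 genes in each of the 12 libraries, as points, beside the 99th percentile of 1506 receptor genes in the same library, as a bar. All 33 points lie above the bar in each whole muscle library, where the bar stands between 0.488 and 1.37 reads per kilobase. In the pools of 20, 7 to 15 of them do, with the bar between 6.34 and 17.9 reads per kilobase.

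Within whole muscle the 33 genes were not equally spread over the 3 libraries, a pattern that was noticed in the values and not tested. Whole muscle 1 was the highest library for 27 of the 33 genes (81.8%), against 25.6% of the 12322 genes at 1 CPM or more in whole muscle. Its level was at least 2 times the mean of whole muscle 2 and 3 in 7 of the 33 (21.2%), against 1.2% of all those genes. These 7 were Ucp1 at 8.17 times, Elovl3 at 2.65, Elovl6 at 2.47, Cidea at 2.38, Agpat2 at 2.26, Fasn at 2.24 and Acly at 2.21. Ucp1, Elovl3 and Cidea are the brown fat genes among the 33. Of 6 other genes listed for brown fat, Slc36a2 was at 1.38 times, above 92.5% of all those genes. Ppargc1a was at 0.943, Prdm16 at 0.726, Dio2 at 0.589, Cox7a1 at 0.564 and Cox8b at 0.514. Several of those, Cox7a1 and Cox8b among them, are also made in muscle fibers. The part of brown fat in these ratios was not tested. Of all 66 other lipid genes at 1 CPM or more, 1 reached 1.5 times, and their median was 0.942. At the other end, the secreted proteins had a median of 1.12 times, and Retn was at 0.766, Adrb3 at 0.895 and Car3 at 0.918 times. None of the marker genes of endothelium, blood, fibroblasts, macrophages, pericytes, nerve, slow fibers or skeletal fibers reached 1.5 times. The 9 skeletal fiber genes had a median of 0.763 and the 8 slow fiber genes one of 0.626 times.

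**Figure D4:**
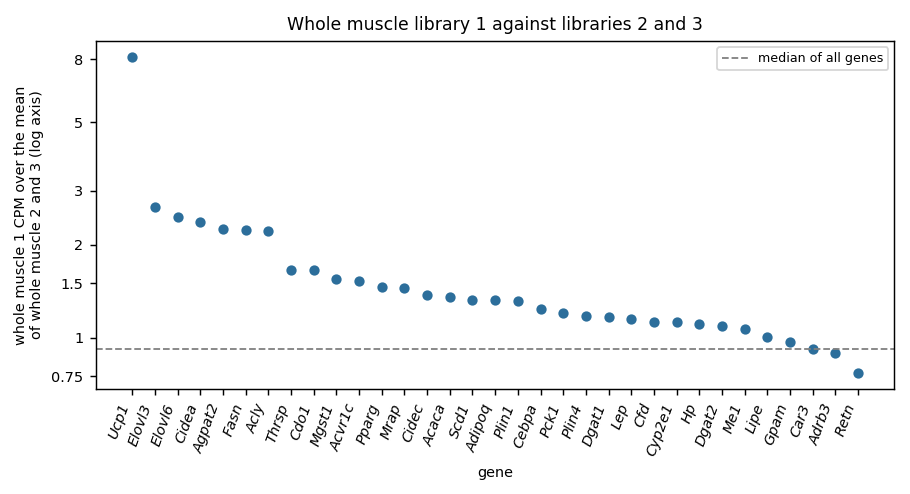
Level in whole muscle 1 divided by the mean of whole muscle 2 and 3 (log axis) for each of the 33 genes, ordered by the ratio. Ucp1 stands at 8.17 times, 7 genes reach 2 times or more, and Retn is the lowest at 0.766 times.

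Other genes of lipid handling, 67 listed by function and 66 of them tested, were set beside the 33. Over all fibers against whole muscle, 29 of the 66 were lower and 3 higher in edgeR's quasi-likelihood test, against 7.78% and 7.46% of all genes tested. Their median log2 fold change was -1.12, beside the 0.40 of all genes. Without whole muscle 1, 2 or 3 the calls in either direction were 20, 19 and 19 (5.12%, 4.58% and 4.55% of all genes, against 15.2% with all libraries). Fatty acid synthesis and its transport steps had 7 of 9 lower, uptake and transport of fatty acids 4 of 7, and other genes of fat cells 6 of 7, while triglyceride synthesis had 0 of 7 called (3 with an unadjusted p under 0.05, as had 33.4% of all genes). The 3 that fell most were Apoc1, an apolipoprotein, with a log2 fold change of -7.58 (SE 0.92), Nnat, a small membrane proteolipid, with -6.29 (SE 0.63), and Fabp4, the fatty acid carrier of fat cells and endothelium, with -5.67 (SE 0.75). The 3 that rose were Ppard, a nuclear receptor of oxidative metabolism, by 2.09 (SE 0.61), Cebpb by 2.08 (SE 0.62) and Cebpd by 1.76 (SE 0.56). Cebpb and Cebpd encode factors that act early in fat cell formation and in stress responses. The 3 highest of the list, the respiratory chain subunits Cox8b and Cox7a1 and the droplet protein Fitm1, were not called, with log2 fold changes of 2.03, 1.53 and 0.47.

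Fabp4 was read in every pool and hardly in single fibers. It had 0.0830, 0 and 0.443 CPM in single fibers, 245, 142 and 49.4 CPM in pools of 5, 24.2, 9.57 and 246 CPM in pools of 20, and 690, 603 and 731 CPM in whole muscle. In the same libraries Adipoq did not pass 1.28 CPM in any pool. Endothelial markers summed to 1.36 to 3.65 CPM in single fibers, 325, 302 and 27 CPM in pools of 5, 38, 47.6 and 235 CPM in pools of 20, and 186 to 227 CPM in whole muscle. Over all fibers 6 of 7 were called lower, although the sums of pools of 5 numbers 1 and 2 and pool of 20 number 3 exceeded every whole muscle library. Fibroblast markers summed to 193, 9.55 and 16.0 CPM in single fibers, 357, 480 and 46.7 CPM in pools of 5, 97.8, 63.1 and 458 CPM in pools of 20, and 3200 to 3604 CPM in whole muscle, with 7 of 7 lower. Erythroid genes summed to 0.354 to 1.25 CPM in single fibers, 384, 452 and 108 CPM in pools of 5, 23.9, 17.9 and 350 CPM in pools of 20, and 605 to 899 CPM in whole muscle, with 5 of 5 lower. Macrophage genes summed to 18.4 to 35.2 CPM in single fibers and 22.7 to 37.5 CPM in pools of 5. They had 21.6 to 45.4 CPM in pools of 20 and 423 to 479 CPM in whole muscle, with 6 of 7 lower. Nerve genes summed to 4.26 to 17.9 CPM in single fibers and 13.6 to 27.6 CPM in pools of 5. They had 17.0 to 29.8 CPM in pools of 20 and 230.5 to 305.9 CPM in whole muscle, with 5 of 6 lower. Pericyte and smooth muscle genes summed to 0.839 to 4.78 CPM in single fibers and 352, 218 and 32.7 CPM in pools of 5. They had 22.1, 28.7 and 183 CPM in pools of 20 and 278.3 to 288.5 CPM in whole muscle, with 4 of 5 lower. Beside each of these counts stands the share of all genes tested that were lower over all fibers, 7.78%. The pools with most endothelial and fibroblast RNA, pools of 5 numbers 1 and 2 and pool of 20 number 3, held Cfd at 0.731, 0.479 and 0.235 CPM. The part of these cells in the values of the 33 genes was not tested.

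**Figure D5:**
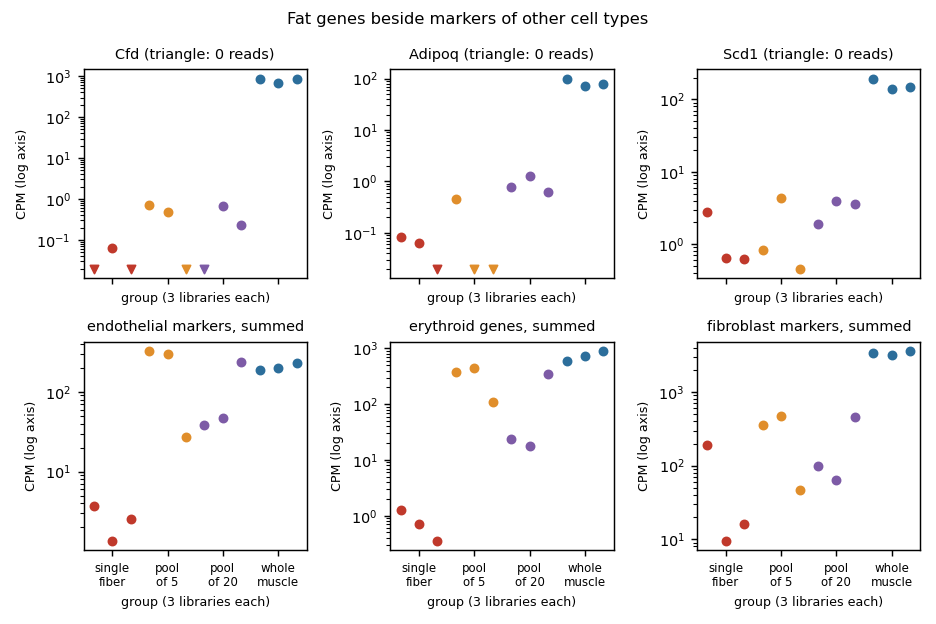
Levels in the 12 libraries (log axes, single fibers on the left of each panel and whole muscle on the right) of fat genes beside summed markers of endothelium, blood and fibroblasts, in CPM. Endothelial markers in pools of 5 numbers 1 and 2 reach 325 and 302 CPM, above the 186 to 227 CPM of whole muscle, while Cfd stays under 1 CPM in every fiber library.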

How the data were processed

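The deposited table holds raw read counts per Ensembl gene for the 12 libraries, and per the submitters' processing notes the authors made these counts with HISAT2, SAMtools and featureCounts on GRCm38 (mm10). Versions, annotation release, strand setting and the treatment of reads with several matches are not given in the sources used here. Of 55573 IDs, 55480 were matched to GENCODE vM21, which gave symbols, coordinates and exon lengths, and promoters came from RefSeq tables of GRCm38.p6. Groups were taken from the sample labels. The 33 genes and all gene lists were chosen with earlier results of these data known.

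The counts were filtered with filterByExpr, scaled by TMM and tested with glmQLFit and glmQLFTest of edgeR 4.0.16 in R 4.3.3, on the libraries of each comparison only, with Benjamini-Hochberg adjustment over all genes tested and a threshold of 0.05. The scripts were tested on simulated counts. The standard error (SE) printed is the absolute log2 fold change over the square root of the test's F statistic. It was not taken from the fit itself and restates the test. Levels are CPM on the TMM scale, and bounds for groups without a read use 3 reads over the group. Intervals are 95% exact binomial intervals of the pooled reads.

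Alternatives were DESeq2 1.42.0, 2 other scaling methods, no filter, a fit on all 12 libraries, the replicate number as a block and each library left out. Values in every library are given for the 2 highest genes of each role in whole muscle (1 in roles under 3 genes), those called between fiber groups, those at or above whole muscle, and the brown fat genes. Depth was 4702823 to 27787120 reads per library, and the TMM-scaled totals behind the CPM were 6266668 to 29781792. Genes well under 1 CPM therefore rest on few reads.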

Additional observations from a re-analysis of the deposited data

How the results depend on the processing

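Of the counts of the 33 genes called, those over all fibers against whole muscle (24) were 23 to 26 under the other settings. They were 22 to 26 with 1 library left out, while the calls over all genes went from 15.2% to between 4.55% and 27.7%. Those of single fibers against whole muscle (26) were 24 to 28 and 20 to 28 in the same order. Over all genes, this comparison had 33.6% called. With 1 library left out, that share was lowest, at 10.4%, without whole muscle 2 and highest without single fiber 2. Those of pools of 20 against whole muscle (23) were 21 to 25 and 21 to 29. Over all genes, 43.9% were called there, and 38.8% to 57.8% with 1 library left out. Pools of 5 against whole muscle (23 genes) gave 2 to 25 genes with 1 library left out, 13 with the replicate block and 30 without the pools of 5 rich in receptor reads, a setting added after seeing the data. Over all genes the calls of this comparison were 8.85%, 1.56% with the block and 46.4% without those pools. Single fibers against pools of 5 (0 genes) gave 0 to 2 with 1 library left out, 2 with no filter, 2 with DESeq2 and 3 in the fit on all 12 libraries (1.84%, 3.33% and 3.41% of all genes). Single fibers against pools of 20 (9 genes) gave 5 to 11 with 1 library left out, 0 with the replicate block and 16 in the fit on all 12 libraries (0.0412% and 38.7% of all genes). Under the block the 9 log2 fold changes ran from -7.93 to 1.94, with edgeR adjusted p between 0.0891 and 0.162. Pools of 5 against pools of 20 stayed at 0. The other lipid genes over all fibers (32) gave 19 to 41 with 1 library left out. Direction was checked for the 33 genes over all fibers against whole muscle and for the 9 called between single fibers and pools of 20. No fold change of a called gene turned its direction there, and the other comparisons were not checked for this. Between single fibers and pools of 20, Acvr1c, Adipoq, Cdo1, Hp, Pck1 and Pparg could only be called lower. Nothing is read from their direction there. The causes were not tested.

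Deviations of libraries with the same replicate number correlated between -0.406 and 0.453, so the numbers do not pair the libraries. Without the libraries rich in receptor reads, pools of 20 could not be compared, since all 3 are among them. Genes under 30 reads in single fibers rest on too few reads for their order there to be read.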
